A study of Mus musculus with 4 samples.

Results

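The cysteine, transsulfuration and glutathione genes are 10 mouse genes, Mat2a, Ahcy, Cbs, Cth, Slc7a11, Gclc, Gclm, Gss, Gsr and Chac1, picked by name from the array's annotation. They are covered by 17 of the 41174 different non-control probes on each array, and these probes carry 10 of 28478 gene names. The genes were chosen with their difference between lymphoma lines and splenocytes already known. Their values in that comparison are therefore a description without a test, and they support nothing beyond themselves. RNA abundance was measured in 2 B-cell lymphoma lines and in 2 samples of splenocytes. The lines were independently established from female C57BL/6N mice transgenic for dopamine receptor 3 (Drd3), and each line was hybridised to 1 array. The splenocytes were selected for B220, a surface marker of B cells, from the spleens of female C57BL/6N mice that the labels do not describe as transgenic, with 1 array per sample. What drives the transgene, the age of the mice and whether a splenocyte sample pooled several mice are not given in the labels. The groups differ at once in malignancy, in being cell lines or selected spleen cells, and in the transgene, and these cannot be told apart.

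Methionine is converted by methionine adenosyltransferase to S-adenosylmethionine, the methyl donor of the cell, and what is left after methyl transfer is hydrolysed to homocysteine. In transsulfuration, homocysteine and serine are joined to cystathionine, which is then split to give cysteine. Cysteine can also be imported as cystine. With glutamate and glycine it forms the tripeptide glutathione, the main soluble thiol of most cells, which is oxidised while removing peroxides and is reduced again at the expense of NADPH. Lymphoid cells are known for a limited capacity to make cysteine by transsulfuration and for relying on its import.

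Values are given as scaled signal, the processed signal of a probe divided by the 75th percentile of its own array. That percentile was 1122 and 1315 in the lines and 1078 and 514 in the splenocyte samples. On the line arrays 26182 and 26022 probes were well above background and on the splenocyte arrays 27449 and 25067, and no spot was saturated. Pearson's r across the tested gene names was 0.991 between the lines and 0.992 between the splenocyte samples, and genes are not independent replicates. A scaled signal compares arrays for 1 probe and says nothing of the level of another probe. Differences are log2 line minus splenocyte, with limma's standard error (SE) from 2 arrays against 2, and this number of arrays limits their precision. The Drd3 probe (mm8, chromosome 16, 43681810 to 43709955) had a scaled signal of 0.0125 and 0.0113 in the lines, against 0.00887 and 0.00570 in the splenocyte samples, where it was not well above background. Its difference of 0.75 ± 0.26 did not pass (adjusted p = 0.0613). It passed with quantile normalization (1.36, adjusted p = 0.0183) and with arrays centred on their medians (1.17, adjusted p = 0.0143). The difference was 1.07 without splenocyte sample 1 and −0.50 with normexp background correction. That correction added an offset of 50 to each signal, more than the processed signal of this probe on any array. The offset by itself reduces differences at dim probes but does not turn a sign, and the cause of the turn was not tested. With signals below the offset, the correction cannot decide the direction. All 7 B-cell markers were well above background on every array, and their summed scaled signal was 301 and 293 in the lines and 552 and 693 in the splenocyte samples. These are bulk samples, in which fewer cells of a type and less RNA per cell cannot be told apart.

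Transcripts of most of the enzymes were more abundant in the lines. Cth, which makes cysteine from cystathionine, was 402-fold higher, and Chac1, which degrades glutathione, was 65.7-fold higher. Gsr, which regenerates reduced glutathione, was 13.1-fold higher, and Gclm and Gclc, the subunits of the enzyme that starts glutathione synthesis, were 7.28-fold and 3.47-fold higher. Mat2a, at the entry to the methionine cycle, differed between the groups by less than the gap between the lines, and Slc7a11, the cystine transporter, was at or near background everywhere. Of the 10 genes, 9 had a probe well above background on at least 2 arrays, the minimum for a comparison, and Slc7a11 did not. Cbs met that minimum through the lines alone. By the brightest such probe, 7 of these 9 genes were at least 2-fold higher in the lines, where 22.1% of all 18804 gene names compared were. None was at least 2-fold lower, where 25.8% of all names were. The values of both groups did not overlap for 8 of the 9, beside 85.0% of all names. The median difference was 2.65 over the 9 genes and −0.05 over all names. By limma's test at an adjusted p under 0.05, 64.8% of all 27404 tested probes and 63.5% of all gene names differed. Nothing is read from these shares, since the genes were chosen on this contrast.

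**Figure D1:**
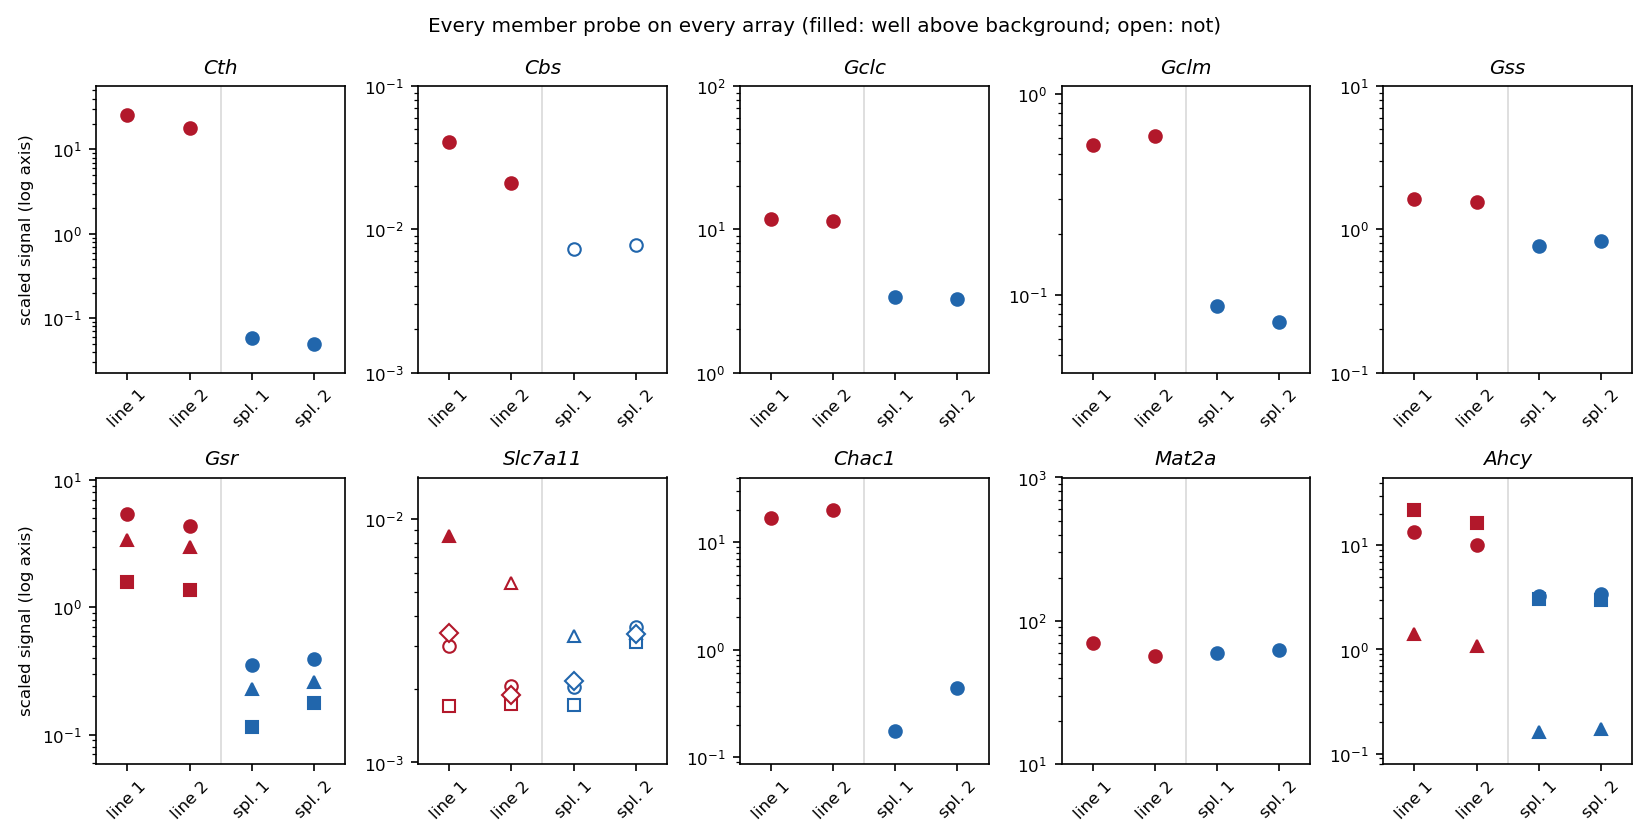
Scaled signal (processed signal over the array's 75th percentile, log axis with its own range in each panel) of all 17 probes of the 10 genes, with lymphoma lines 1 and 2 in red at the left and splenocyte samples 1 and 2 in blue at the right. Marker shapes separate probes of a gene, and open markers were not well above background; Mat2a is the only gene with measured probes whose groups overlap, and nearly all Slc7a11 markers are open.

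Mat2a encodes the catalytic subunit of the methionine adenosyltransferase found outside the liver. Its probe (A_51_P500344; mm8, chromosome 6, 72362371 to 72362430) had a scaled signal of 70.2 and 57.0 in the lines, against 60.0 and 62.8 in the splenocyte samples. Line 1 lay above both splenocyte samples and line 2 below both, and the difference was 0.04 ± 0.17. It was the smallest of the 9 compared genes, and its sign depended on the scaling: it was −0.09 with the percentile taken over probes well above background on all arrays, −0.02 with quantile normalization and −0.11 without line 1.

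Ahcy encodes the hydrolase that turns S-adenosylhomocysteine into adenosine and homocysteine. Its brightest probe (A_51_P473533; chromosome 2, 154751522 to 154751581) had a scaled signal of 22.0 and 16.4 in the lines, against 3.08 and 2.98 in the splenocyte samples. Both lines were above both splenocyte samples, by 2.65 ± 0.20 or 6.28-fold. A neighbouring probe (A_51_P473528; 154751283 to 154751348) gave 13.6 and 10.01 in the lines, against 3.24 and 3.45 in the splenocyte samples, a 3.49-fold difference. The remaining probe (A_52_P176160; 154757026 to 154757085) gave 1.40 and 1.09 in the lines, against 0.162 and 0.172 in the splenocyte samples, or 7.40-fold. All 3 Ahcy probes were thus higher in the lines, with line 1 above line 2 at each, and the difference was 1.80 ± 0.21 at A_51_P473528, 2.65 ± 0.20 at the brightest probe and 2.89 ± 0.19 at A_52_P176160.

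Cbs and Cth are the enzymes of transsulfuration in sequence. Cbs, cystathionine beta-synthase, joins homocysteine to serine. Its probe (A_52_P210246; chromosome 17, 31341732 to 31341791) had a scaled signal of 0.0405 and 0.0210 in the lines, against 0.00726 and 0.00771 in the splenocyte samples, neither of which was well above background. With the splenocytes at the limit of detection the lines were at least 3.05-fold higher. In such a bound each dim array counts at its lowest signal among probes well above background, or at the probe's own signal if that is higher, and the bright group at its measured mean. The measured difference was 1.96 ± 0.35, and with normexp background correction and its offset of 50 it was −0.09. The processed signal of this probe was 45.4 and 27.6 in the lines and 7.82 and 3.97 in the splenocyte samples, all below that offset. That setting therefore cannot decide the direction at this dim probe. The lines differed from each other by 0.94, more than in 92.5% of all gene names, and line 1 was the higher.

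Cth, cystathionine gamma-lyase, releases cysteine from cystathionine. Its probe (A_51_P431737; chromosome 3, 157829996 to 157830055) had a scaled signal of 25.8 and 17.9 in the lines, against 0.0578 and 0.0495 in the splenocyte samples, and was well above background on all 4 arrays. The difference was 8.65 ± 0.24, and on the log2 scale the lower line stood above the higher splenocyte sample by 15.7 times the larger gap within a group. By size of increase Cth ranked 18 among the 18804 gene names. Its fold was 149 with normexp background correction and 541 with arrays centred on their medians, and all other settings lay between them. The 5 gene names whose 4 array values, each centred on the probe's own mean, lay nearest to those of Cth were Syngr1, 1810046K07Rik, 2310005C01Rik, Slc1a4 and Cdkn2b. Their Euclidean distances on the log2 scale were 0.458, 0.820, 0.833, 0.965 and 0.965, out of 15618 probes compared over these 4 samples. This choice ensures that each has, like Cth, a high value in both lines and a low one in both splenocyte samples. Slc1a4, a transporter of alanine, serine and cysteine, is the only one of the 5 that belongs to the cysteine transport genes.

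Slc7a11 encodes xCT, the light chain of the antiporter that imports cystine in exchange for glutamate. Of the 16 readings at its 4 probes (chromosome 3), 15 were not well above background. The exception was probe A_52_P368057 in line 1, with a scaled signal of 0.00855, against 0.00547 in line 2 and 0.00332 and 0.00341 in the splenocyte samples. At the other 3 probes the measured differences were −0.12, −0.43 and −0.10, and the groups overlapped at each of them. No fold is given, because at these 3 probes neither group was well above background and at the exception only 1 array was. Probe A_52_P298824 is annotated to another transcript than the other 3.

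Glutamate-cysteine ligase joins glutamate to cysteine and is the rate-limiting enzyme of glutathione synthesis. Its catalytic subunit, Gclc (A_51_P365019; chromosome 9, 77579173 to 77579232), had a scaled signal of 11.7 and 11.3 in the lines, against 3.37 and 3.29 in the splenocyte samples. Both lines lay above both splenocyte samples by 1.79 ± 0.14, with little spread within either group. The modifier subunit, Gclm (A_51_P320089; chromosome 3, 122251278 to 122253913), had 0.553 and 0.613 in the lines, against 0.0880 and 0.0728 in the splenocyte samples. Its difference was 2.86 ± 0.17, or 7.28-fold, and 3.98-fold with normexp background correction. Line 2 was above line 1, which among the compared genes held only for Gclm and Chac1. Gss, glutathione synthetase, adds glycine to complete the tripeptide. Its probe (A_52_P358860; chromosome 2, 155255137 to 155256236) had 1.62 and 1.54 in the lines, against 0.765 and 0.827 in the splenocyte samples. The groups did not overlap, and the difference of 0.99 ± 0.15, or 1.99-fold, lay just under a 2-fold change. The annotated spans of the Gclm and Gss probes are 2636 and 1100 bases, where those of most probes are 60, so these 2 probes are placed across a gap in the genome.

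Gsr, glutathione reductase, regenerates glutathione from its disulfide with NADPH. Its brightest probe (A_51_P359625; chromosome 8, 35163862 to 35163921) had a scaled signal of 5.40 and 4.37 in the lines, against 0.350 and 0.394 in the splenocyte samples. Probe A_52_P91604 (35163841 to 35163900) had 3.37 and 2.96 in the lines, against 0.226 and 0.259 in the splenocyte samples. These probes share 39 bases and are not independent, and their differences were 3.71 ± 0.18 and 3.71 ± 0.17, or 13.1-fold each. The separate probe A_52_P346738 (35163276 to 35163335) had 1.58 and 1.37 in the lines, against 0.114 and 0.177 in the splenocyte samples, or 10.4-fold. At all 3 probes both lines were above both splenocyte samples.

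Chac1 encodes a gamma-glutamyl cyclotransferase that breaks glutathione down inside the cell, and it is known as a transcript induced by ATF4, a factor of the amino acid and unfolded protein responses. Its probe (A_51_P134812; chromosome 2, 119045695 to 119045754) had a scaled signal of 16.8 and 19.8 in the lines, against 0.174 and 0.443 in the splenocyte samples. The lines were alike and the splenocyte samples were not: sample 2 was 2.54-fold above sample 1, a gap wider than in 98.1% of all gene names. The difference was 6.04 ± 0.48, the widest SE among the 9 compared genes. Its fold was 41.2 without splenocyte sample 1 and 105 without splenocyte sample 2.

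**Figure D2:**
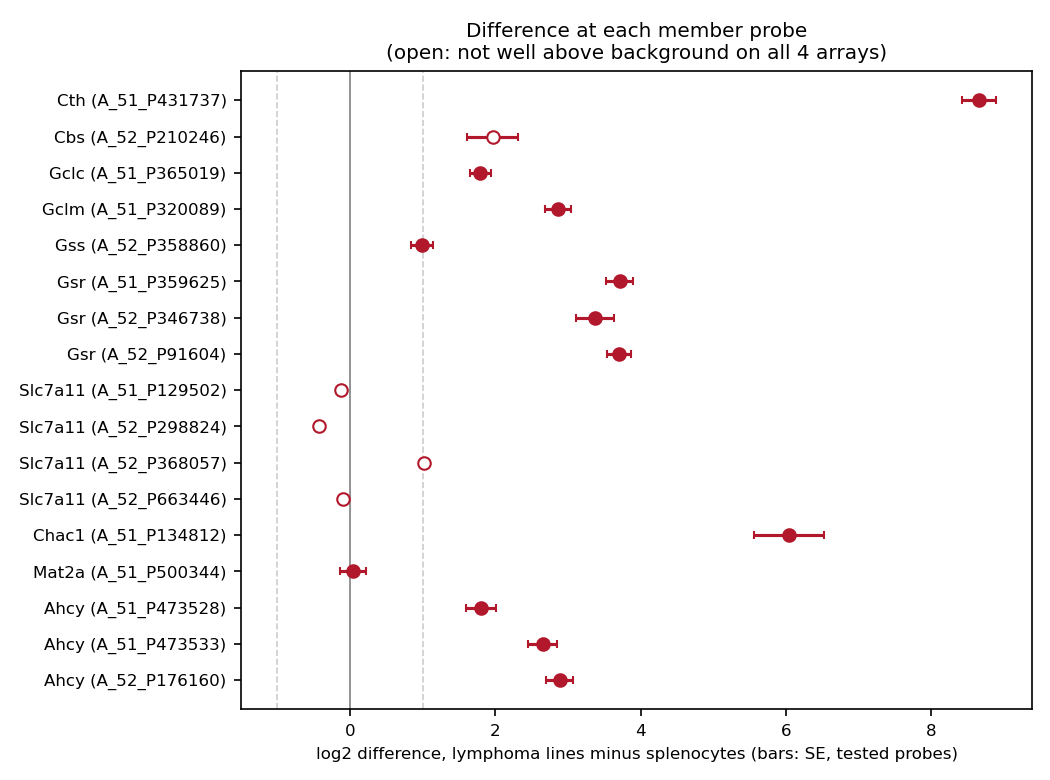
Log2 difference, lymphoma lines minus splenocytes, at each of the 17 probes; bars are limma's SE and are drawn for the 13 compared probes, open markers were not well above background on all 4 arrays, and dashed lines mark a 2-fold change. Cth stands at 8.65 and Chac1 at 6.04, the Gsr and Ahcy probes lie between 1.80 and 3.71, and Mat2a lies at 0.04.

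The median absolute gap between line 1 and line 2 was 0.30 over the 9 genes and 0.23 over all gene names. Between the splenocyte samples it was 0.11 over the 9 genes and 0.16 over all names. Line 1 had the higher value at 7 of the 9 genes, while the median difference between the lines over all names was −0.00013. The median of line 1 minus line 2, with its sign, was 0.30 over the 9 genes. It was 0.10 with quantile normalization and 0.47 with arrays centred on their medians, so its size depends on the scaling. Each line is a single array, so these gaps have no error of their own and were not tested.

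RefSeq promoter windows, the 250 bases before the annotated start in GRCm38.p6, were at hand for 7 of the 10 genes, and for Cth, Gclc and Gsr none was used here. They were read on both strands for 3 motifs: TGATGNAA, the core of the C/EBP-ATF response element bound by ATF4; TGACNNNGC, the core of the antioxidant response element bound by NRF2; and CACGTG, the E-box. The 3 windows with a match to either of the first 2 motifs are shown because they belong to the glutathione-degrading gene that was far higher in the lines, to the cystine transporter that was at background, and to the ligase modifier subunit. Sequences are RefSeq's and run 5′ to 3′ along the gene, and capitals mark the match.
Chac1 (chr2:119350992-119351241, plus strand): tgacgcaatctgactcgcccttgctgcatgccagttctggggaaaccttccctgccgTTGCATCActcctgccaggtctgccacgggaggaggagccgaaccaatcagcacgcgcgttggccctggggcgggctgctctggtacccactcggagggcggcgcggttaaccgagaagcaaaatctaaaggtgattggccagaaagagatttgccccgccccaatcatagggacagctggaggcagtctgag
Slc7a11 (chr3:50443614-50443863, minus strand): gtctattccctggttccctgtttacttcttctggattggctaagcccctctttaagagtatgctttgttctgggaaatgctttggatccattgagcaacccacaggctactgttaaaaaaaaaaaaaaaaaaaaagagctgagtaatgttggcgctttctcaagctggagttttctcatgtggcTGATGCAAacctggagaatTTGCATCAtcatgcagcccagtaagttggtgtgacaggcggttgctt
Gclm (chr3:122245307-122245556, plus strand): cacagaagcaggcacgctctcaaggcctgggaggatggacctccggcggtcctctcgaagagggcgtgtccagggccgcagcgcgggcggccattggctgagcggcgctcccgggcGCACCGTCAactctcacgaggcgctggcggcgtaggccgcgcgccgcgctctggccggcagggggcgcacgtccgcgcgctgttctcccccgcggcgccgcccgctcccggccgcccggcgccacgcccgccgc
The Chac1 window holds TGATGNAA on the opposite strand, 193 to 186 bases before the start. The Slc7a11 window holds it at 66 to 59 bases on the gene's strand and again at 47 to 40 bases on the opposite strand. That motif occurs in 3.45% of the 32851 windows of this length in the table. The Gclm window holds TGACNNNGC on the opposite strand, 134 to 126 bases before the start. At any position and on either strand, TGACNNNGC occurs in 10.2% of all windows. CACGTG, present in 6.02% of all windows, was found in the Cbs window at 229 to 224 bases. The windows of Gss, Mat2a and Ahcy held none of the 3 motifs. Chac1, 65.7-fold higher in the lines, and Slc7a11, not well above background in 15 of 16 readings, thus both hold that motif. A match describes letters and is no evidence of a factor's binding.

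Genes of 10 neighbouring lists were compared in the same fit, each by its brightest probe, with Benjamini-Hochberg adjustment over all 27404 tested probes. Of 144 listed genes 130 were tested, 13 were too dim and 1 had no probe. In the lines 64 of the 130 rose (49.2%) and 31 fell (23.8%), and 35 did not pass. Over all gene names 30.7% rose and 32.8% fell. The median difference was 0.55 over the listed genes, against −0.05 over all names. With arrays centred on their medians 78 rose and 20 fell. The lists were chosen with earlier results of these data known, so the counts describe them and are not independent evidence.

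Among genes for the supply of serine and of folate-bound carbon, which feeds both homocysteine remethylation and transsulfuration, 10 of 12 tested rose and none fell (1 fell without line 2), with a median difference of 2.44. Mthfd2, a mitochondrial folate dehydrogenase, had a scaled signal of 13.4 and 13.6 in the lines, against 0.722 and 0.604 in the splenocyte samples, and rose 20.5-fold (4.35 ± 0.16; adjusted p = 0.000226). Psph, which completes serine synthesis, rose 12.2-fold (3.61 ± 0.14; adjusted p = 0.000233). In the methionine cycle and salvage 8 of 14 rose and 2 fell. Ahcyl2, a relative of Ahcy, rose 13.0-fold (adjusted p = 0.000399), and Adi1, a dioxygenase of methionine salvage, rose 7.85-fold (adjusted p = 0.000369). Mri1, an isomerase of the same salvage route, fell by 0.84 on the log2 scale (adjusted p = 0.00942). Mat2b, the regulatory partner of Mat2a, had 6.97 and 8.11 in the lines, against 11.6 and 12.4 in the splenocyte samples, and fell by 0.67 (adjusted p = 0.0206). The Mat2b call was lost without splenocyte sample 1 (−0.72), without splenocyte sample 2 (−0.63), without line 1 (−0.56) and without the filter on dim probes (−0.67), where its size was close to that reported, and with arrays centred on their medians (−0.24). The Mri1 call was lost without splenocyte sample 1 (−0.74) and with that centring (−0.41). Of the 2 decreases in this list 0 were called without splenocyte sample 1, and 1 without splenocyte sample 2 or without line 1.

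Among cysteine and glutamate transporters 6 of 11 tested genes rose and 3 fell (54.5% and 27.3%), beside 30.7% and 32.8% of all gene names. Slc3a2, the heavy chain that pairs with Slc7a11 and with other light chains, had a scaled signal of 58.9 and 63.6 in the lines, against 17.2 and 18.8 in the splenocyte samples, and rose 3.41-fold (1.77 ± 0.15; adjusted p = 0.00115). Slc7a5, another of its light chains, which carries large neutral amino acids, rose 20.6-fold (4.36 ± 0.14; adjusted p = 0.000171). Slc1a4 had 5.22 and 5.12 in the lines, against 0.0234 and 0.0239 in the splenocyte samples, and rose 219-fold (7.77 ± 0.14; adjusted p = 9.44e-05), with a log2 difference of 5.40 after normexp background correction. The heavy chain was thus called higher in the lines, while the xCT light chain was well above background in 1 of 16 readings. Slc1a3, a glutamate transporter, was not well above background in either line and fell at least 10.5-fold. Its measured difference was −5.43 (adjusted p = 0.000234), though it fell by 1.73 on the log2 scale with normexp background correction. Slc43a2, a carrier of neutral amino acids, fell by 3.62 (adjusted p = 0.00363). It fell by 2.65 with normexp background correction, by 2.73 as a mean over its probes, by 2.97 without line 1 and by 4.26 without line 2.

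Genes that consume cysteine or glutathione moved both ways, as did all gene names, of which 30.7% rose and 32.8% fell. In cysteine breakdown and sulfide oxidation 4 of 11 tested genes rose and 4 fell (36.4% each), near those shares. Ado, a thiol dioxygenase, rose 4.08-fold (adjusted p = 0.0008) and Got1, an aspartate aminotransferase, rose 3.68-fold (adjusted p = 0.00123). Cdo1, which oxidises cysteine, had a scaled signal of 0.0116 and 0.0269 in the lines, against 0.0976 and 0.0903 in the splenocyte samples, and fell by 2.41 (adjusted p = 0.00868), or by 1.31 with normexp background correction. It fell by 1.80 without line 1 and by 3.02 without line 2. Sqrdl, a sulfide oxidoreductase, was at background in the lines and fell at least 3.56-fold. Its measured difference was −2.68 (adjusted p = 0.0015), though it fell by 0.92 on the log2 scale with normexp background correction. In the gamma-glutamyl cycle and glutathione export 5 of 13 tested genes rose and 5 fell (38.5% each), also near the shares of all gene names. Leaving out splenocyte sample 1 or line 2 left 2 decreases called, and leaving out splenocyte sample 2 or line 1 left 3. Chac2, the relative of Chac1, had 3.09 and 2.35 in the lines, against 0.770 and 0.692 in the splenocyte samples, and rose 3.69-fold (adjusted p = 0.00197). Abcc4, an exporter, rose 4.06-fold (adjusted p = 0.00145) and Cndp2, a dipeptidase, rose 3.86-fold (adjusted p = 0.000858). Ggt5, a gamma-glutamyl hydrolase at the cell surface, was at background in the lines and fell at least 26.9-fold. Its measured difference was −6.30 (adjusted p = 0.000309), and it fell by 2.29 on the log2 scale with normexp background correction. The name Oplah, a 5-oxoprolinase, is carried by 2 probes on opposite strands of chromosome 15. The brighter, on the plus strand and annotated to a cDNA clone, fell by 2.65 (adjusted p = 0.00346) and is counted among the 5 that fell. The other, on the minus strand and annotated to the RefSeq Oplah transcript, was 1.69 higher in the lines (adjusted p = 0.0021), so the decrease is not one of that transcript. Ggct, a cyclotransferase of the same cycle, fell by 0.53 (adjusted p = 0.0465), a call lost under 7 of 14 other settings, among them without splenocyte sample 1 (−0.58), without splenocyte sample 2 (−0.48), without line 2 (−0.40) and with arrays centred on their medians (−0.10).

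**Figure D3:**
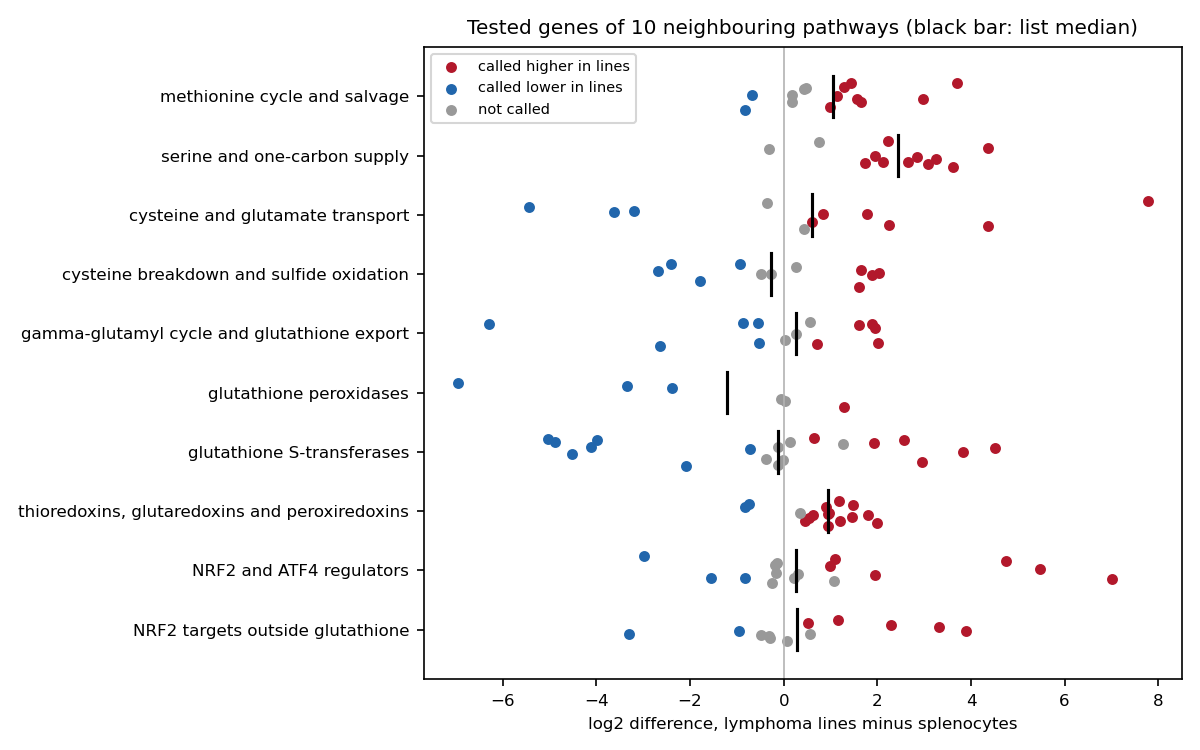
Log2 difference, lymphoma lines minus splenocytes, of the 130 tested genes in 10 lists neighbouring the glutathione genes; each point is a gene at its brightest probe, red points were called higher in the lines, blue points lower and grey points were not called (limma adjusted p, threshold 0.05), and black bars are list medians. Serine and one-carbon supply has its median at 2.44 with no blue point, and glutathione peroxidases have theirs at −1.22.

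Enzymes that use glutathione also changed in both directions, as did all gene names, of which 30.7% rose and 32.8% fell. Of 6 tested peroxidases 1 rose and 3 fell. Gpx4, which reduces lipid peroxides in membranes, had a scaled signal of 31.0 and 23.9 in the lines, against 10.7 and 11.6 in the splenocyte samples, and rose 2.44-fold (1.29 ± 0.19; adjusted p = 0.00505). Gpx7 was at background in the lines and fell at least 27.7-fold. Its measured difference was −6.95 (adjusted p = 0.00018), and it fell by 2.69 on the log2 scale with normexp background correction. Gpx3, a secreted peroxidase, had 0.00175 and 0.0108 in the lines, where only line 2 was well above background, against 0.0527 and 0.0369 in the splenocyte samples. Gpx3 fell by 3.34 (adjusted p = 0.0302), a call lost without splenocyte sample 1 (−3.08), without splenocyte sample 2 (−3.60) and without the filter on dim probes (−3.34), with the size little changed. It fell by 1.08 with normexp background correction, by 2.03 without line 1 and by 4.65 without line 2. Of 19 tested glutathione S-transferases 6 rose and 7 fell (31.6% and 36.8%), near the shares of all gene names. Gstt3 rose 14.1-fold (adjusted p = 0.000604) and Gstt1 rose 7.72-fold (adjusted p = 0.00164), while the microsomal Mgst1 fell by 5.04 (adjusted p = 0.000642) and Mgst2 fell by 4.88 (adjusted p = 0.000273). With normexp background correction the Gstt1 difference was 2.08 and Mgst1 fell by 3.502. Transferases of the alpha and mu classes are close in sequence, and their probes may not tell members apart. Myeloid cells express Mgst1 strongly, and of the macrophage and neutrophil markers with a probe, 4 and 2 of 6 were well above background in lines 1 and 2 and all 6 in both splenocyte samples. Their summed scaled signal was 35.4 and 35.7 in the lines, nearly all from Adgre1, and 15.4 and 10.1 in the splenocyte samples, while Lyz2 and S100a8 were not well above background in either line. The part of such cells in these decreases was not tested.

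Of 16 tested thioredoxin, glutaredoxin and peroxiredoxin genes, which form the other thiol reduction system, 13 rose and 2 fell. These are 81.25% and 12.5%, beside 30.7% and 32.8% of all gene names. Without splenocyte sample 2 the increases called numbered 7 and the decreases 0. Without splenocyte sample 1 the decreases called were 0, and without line 1 they were 1. Txnrd1, the cytosolic thioredoxin reductase, had a scaled signal of 28.8 and 24.6 in the lines, against 7.78 and 7.58 in the splenocyte samples, and rose 3.47-fold (adjusted p = 0.00128). Prdx4, a peroxiredoxin of the endoplasmic reticulum, rose 3.99-fold (adjusted p = 0.00126), and by 1.38 on the log2 scale as a mean over its probes. Txnip, which binds thioredoxin, fell by 0.82 (adjusted p = 0.0246), and Txnrd2, the mitochondrial reductase, fell by 0.74 (adjusted p = 0.013). The other Txnip probe was not called (−0.41, adjusted p = 0.143). The Txnrd2 call came from a probe annotated to a cDNA clone. Neither probe annotated to the RefSeq Txnrd2 transcript was called (−0.50 and −0.13, adjusted p = 0.0749 and 0.553). The Txnip and Txnrd2 calls were lost under 6 and 4 of 14 other settings. Among these were leaving out either splenocyte sample, centring on the median and the mean over probes. The differences there were −0.92, −0.71, −0.39 and −0.61 for Txnip. For Txnrd2 they were −0.68, −0.81, −0.31 and −0.46.

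Of 16 tested regulators 6 rose (37.5%), 3 fell (18.75%) and 7 did not pass, beside 30.7% and 32.8% of all gene names. The transcripts of the factors NRF2 and ATF4 were among those not called. Nfe2l2, which encodes NRF2, had a scaled signal of 8.19 and 7.63 in the lines, against 9.37 and 9.55 in the splenocyte samples, and was not called (−0.26 ± 0.14; adjusted p = 0.178). Its other probe annotated to the RefSeq transcript was also not called (−0.26, adjusted p = 0.211). The remaining 1 of its 3 probes, annotated to a cDNA clone, was called lower (−2.59, adjusted p = 0.00111). The mean of the 3 was therefore called too (−1.04, adjusted p = 0.00426), so that call does not rest on the RefSeq transcript. The brightest Nfe2l2 probe was called with quantile normalization (−0.41, adjusted p = 0.0454), and it was 0.17 with arrays centred on their medians. Keap1, its inhibitor, differed by 0.21 ± 0.18 (adjusted p = 0.353). Bach1, a repressor at antioxidant response elements, differed by −0.14 ± 0.15 (adjusted p = 0.451), with a positive sign under 2 scalings. Atf4 had 13.7 and 11.5 in the lines, against 10.02 and 10.4 in the splenocyte samples, and was not called (0.30 ± 0.16; adjusted p = 0.176), though it was with arrays centred on their medians (0.73; adjusted p = 0.0322). Bach2, a repressor of the B lineage, fell by 2.99 (adjusted p = 0.000492), and by 4.12 as a mean over its probes, and Atf3 fell by 1.54 (adjusted p = 0.0101). Trib3, an ATF4 target, had 5.09 and 7.12 in the lines, against 0.117 and 0.155 in the splenocyte samples, and rose 44.6-fold (adjusted p = 0.00032), or by 4.84 on the log2 scale with normexp background correction. Nupr1, a stress-induced chromatin protein, rose 130-fold (7.02 ± 0.20; adjusted p = 0.00015), with a log2 difference of 5.004 after normexp background correction.

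Of 12 NRF2 targets outside the glutathione pathway 5 rose (41.7%), 2 fell (16.7%) and 5 did not pass. Of all gene names 30.7% rose and 32.8% fell. The increases called numbered 3 without line 1, without splenocyte sample 1 or without splenocyte sample 2. Hmox1, heme oxygenase, had a scaled signal of 7.18 and 7.21 in the lines, against 0.471 and 0.497 in the splenocyte samples, and rose 14.9-fold (3.89 ± 0.14; adjusted p = 0.000209). Nqo1, a quinone reductase, was dim, with 0.0510 and 0.0593 in the lines, against 0.0190 and 0.00673 in the splenocyte samples, the last of them not well above background. Its increase of 2.28 (adjusted p = 0.0186) was lost with normexp background correction (0.01), without line 1 (2.39) and without line 2 (2.17), and was 3.03 without splenocyte sample 1 and 1.54 without splenocyte sample 2. Osgin1, a target linked to oxidative stress, fell by 3.30 (adjusted p = 0.000297), and by 2.03 as a mean over its probes. Blvrb, a biliverdin reductase, fell by 0.96 (adjusted p = 0.00765), a call lost with arrays centred on their medians (−0.54).

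**Figure D4:**
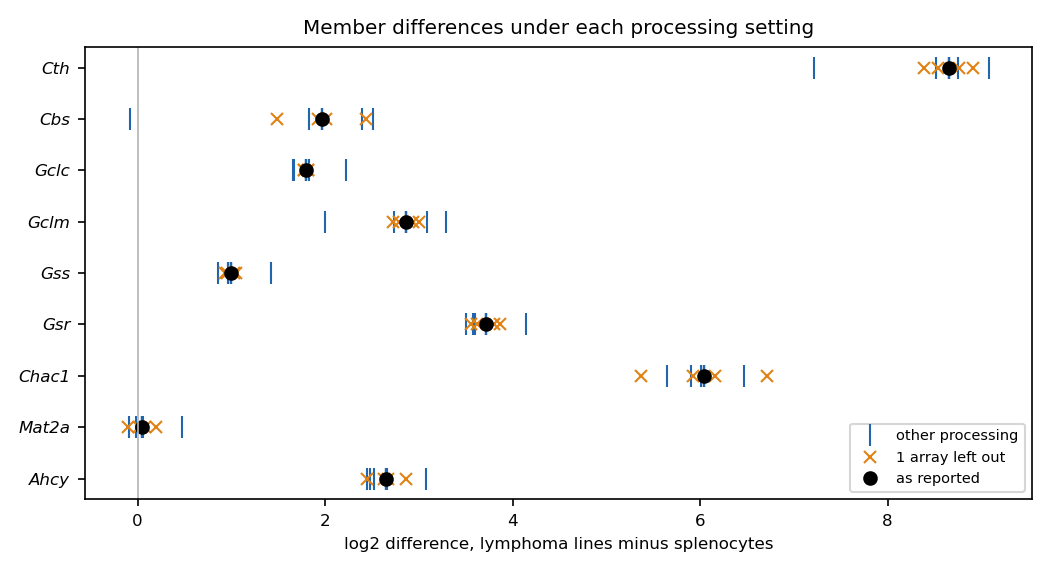
Log2 difference, lymphoma lines minus splenocytes, of the 9 compared cysteine and glutathione genes under each processing setting: black points as reported, blue bars with another normalization, background correction, filter or probe rule, orange crosses with 1 array left out. Cth ranges from 7.22 to 9.08 and Chac1 from 5.37 to 6.71, Cbs reaches −0.09, and Mat2a lies on both sides of 0.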

How the data were processed

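RNA of 2 B-cell lymphoma lines and 2 B220+ splenocyte samples was hybridised as Cy3-labelled cRNA to 1-colour mouse arrays, all on 1 slide and in 1 scan per the file headers. Images were read with Agilent Feature Extraction, 9.5 per the submitters' processing notes and 9.5.1.1 per the file headers. The deposited processed signal is an intensity corrected for background by that software, per the file headers, and is not normalized between arrays. The deposited value table of the series holds the same intensity times 1 factor per array, as read from the values. The other columns used are flags of 0 or 1 and probe annotation in mm8, per the file headers.

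Spots of a probe were averaged after spots flagged as outliers were left out, which removed 153 probes. Each value was divided by the 75th percentile of its array's non-control spots and put on the log2 scale. Probes well above background on at least 2 arrays were tested with limma 3.58.1 in R 4.3.3 (lmFit, eBayes, two-sided) and adjusted by Benjamini-Hochberg, called at an adjusted p under 0.05, with 2 residual degrees of freedom and 2.417 from the prior. The brightest tested probe stands for a gene, under its current symbol where the accession matched RefSeq (24375 probes). Nothing in the labels says that the 2 splenocyte samples came from different animals, so p-values measure only how far these arrays differ, possibly for technical reasons.

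The 10 genes, the 10 lists and the markers were chosen with earlier results of these data known. Named from each list were the 2 largest called changes in each direction, counted at their bound where dim, with Nfe2l2, Keap1, Bach1, Bach2, Atf4, Slc3a2, Mat2b, Chac2, Ggct, Gpx4, Txnrd1 and Drd3 whatever their values, and the 5 names nearest to Cth. Replicate numbers were taken not to pair the samples: deviations of same-numbered arrays correlated at 0.0152 across gene names. The summed scaled signal of the other marker lists was 5.37 and 6.43 in the lines and 1.23 and 1.08 in the splenocyte samples for T cells. In the lines nearly all of it was Cd3g, with 5.09 and 6.15 in the lines and 0.289 and 0.258 in the splenocyte samples. Cd3d was lower in the lines, with 0.110 and 0.101 in the lines and 0.651 and 0.486 in the splenocyte samples, and Cd8a was not well above background in either line. The sum was 0.0599 and 0.0458 in the lines and 1.05 and 1.002 in the splenocyte samples for NK cells. It was 35.6 and 35.3 in the lines and 22.5 and 21.8 in the splenocyte samples for plasmacytoid dendritic cells. Most of it was Tcf4, with 26.9 and 26.0 in the lines and 14.9 and 13.6 in the splenocyte samples. Siglech, much dimmer, was also called higher in the lines (limma adjusted p = 0.0264), and Bst2 and Il3ra were not called (limma adjusted p = 0.361 for each). The sum was 2.35 and 0.894 in the lines and 5.65 and 5.72 in the splenocyte samples for erythroid cells. For stroma and endothelium it was 0.382 and 0.374 in the lines and 1.57 and 1.55 in the splenocyte samples. Most of the latter was Pecam1, with 0.171 and 0.166 in the lines and 1.28 and 1.43 in the splenocyte samples. Col1a1 went the other way, with 0.106 and 0.0772 in the lines and 0.00323 and 0.00428 in the splenocyte samples, where it was not well above background.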

Additional observations from a re-analysis of the deposited data

Results flagged for a closer look

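Mat2a was flagged because the lines lay on opposite sides of the splenocytes. Line 1, with a scaled signal of 70.2, was above both splenocyte samples and line 2, with 57.0, was below both, against 60.0 and 62.8 in the splenocyte samples. Line 1 exceeded line 2 by 0.30 on the log2 scale, where the median absolute gap between the lines over all gene names was 0.23. The Mat2a gap was wider than in 60.6% of all gene names and is thus not unusual in size. Each line is 1 array, and the difference between them was not tested.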

How the results depend on the processing

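The count of probes called (17755) ran from 13162 to 17021 when 1 array was left out, and the listed genes called higher (64) and lower (31) from 54 to 63 and from 22 to 29. With the replicate number as a block 16749 probes, 62 higher and 29 lower listed genes were called; among the named genes the block ended only the Ggct call and brought in only Drd3 (adjusted p = 0.0468). The genes at least 2-fold higher numbered 6 to 8 and those 2-fold lower 0 under every setting run, and their median difference ran from 2.44 to 2.79 with 1 array left out. It was 3.08 with arrays centred on their medians and 1.99 with normexp background correction. Centring on the median gave 20 listed genes called lower, shifted the median of all gene names by 0.43, and made 63.6% of all calls higher in the lines, against 48.3% in the values reported. The same median moved by 0.14 with quantile normalization, −0.13 with the percentile over probes well above background on all arrays, −0.27 with normexp and −0.34 without the filter. Signs turned for Bach1 (0.29 centred on the median, 0.071 with quantile normalization), Nfe2l2 (0.17 centred on the median), Drd3 (−0.50 with normexp), Cbs (−0.087 with normexp) and Mat2a (−0.089 with the percentile over probes well above background on all arrays, −0.022 with quantile normalization, and −0.11 to 0.19 with 1 array left out). The causes were not tested. A slide block was not run because all arrays lie on 1 slide. Signals near background limit Slc7a11, Cbs, Drd3 and Nqo1. The normexp setting added an offset of 50, which by itself reduces differences at dim probes but does not turn a sign. At probes with signals below that offset its values do not decide a direction.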
